A study of Rattus norvegicus with 25 samples.

Results

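B cell and plasma cell genes were followed in the esophageal epithelium of 25 rats through 7 listed genes, Cd79a, Cd79b, Ms4a1, Tnfrsf17, Jchain, Mzb1 and Pou2af1. The members were found as the array probes whose RefSeq accession carries one of these symbols. Of the 7 genes, 4 had a named probe, out of 15443 named genes on the array. Cd79b, Pou2af1 and Tnfrsf17 were among the 12343 genes that could be tested, and Mzb1 was above background on too few arrays for that. Cd79a, Ms4a1 and Jchain matched 0 probes and are not analysed here.

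All rats were male F344 animals, 5 in each of 5 groups, and each array held the RNA of 1 rat. Control rats ate the normal diet and received no carcinogen. NMBA rats ate that diet and received NMBA, N-nitrosomethylbenzylamine, a nitrosamine used to induce esophageal tumours in rats. The NMBA+Alpha-T, NMBA+Delta-T and NMBA+Gamma enriched-T groups, called alpha, delta and gamma-enriched here, received NMBA with alpha-tocopherol, delta-tocopherol or a gamma-enriched tocopherol preparation. Tocopherols are forms of vitamin E that are told apart by how many methyl groups the chromanol ring bears and where. The sources used here give no dose, route or duration, and do not say which rats bore tumours. The comparisons ask what the carcinogen changed and what each tocopherol changed on top of it.

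Values are log2 signal minus the array's own 75th percentile, so a value of 0 is the level below which 75 of 100 probes lay on that array, and 1 unit is a doubling of signal. "Well above background" is the scanner software's own call for a spot. Between 70.6% and 79.8% of spots passed that call on each array, and the 75th percentile of signal lay between 3070 and 8061 units. The arrays lay on 4 slides. Slide 1 carried the alpha group with delta rats 1, 2 and 3. Slide 2 carried the gamma-enriched group, the remaining 2 delta rats and the first Control rat. Slide 3 carried the other 4 Control rats with 4 NMBA rats, and slide 4 carried the fifth NMBA rat. No slide therefore carried NMBA rats together with tocopherol rats. The 6 markers of squamous epithelium on the list (Krt5, Krt14, Krt4, Krt13, Tp63 and Ivl) were all tested, with a summed level between 60.2 and 130 times the 75th percentile. The 8 muscle markers were tested too, at 52.8 to 142 times, so muscle RNA was present beside the labelled epithelium.

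B cells carry an antigen receptor, made of a membrane antibody and a signalling pair encoded by Cd79a and Cd79b. Ms4a1 encodes CD20, a membrane protein of B cells that is lost when they become plasma cells. Pou2af1 encodes OCA-B, a co-activator that works with octamer-binding factors at antibody gene promoters. Plasma cells secrete antibody, and Mzb1 encodes an endoplasmic reticulum protein that helps to assemble it, while Jchain encodes the chain that joins IgA or IgM units. Tnfrsf17 encodes BCMA, the receptor of plasma cells for the survival factors Tnfsf13 (APRIL) and Tnfsf13b (BAFF). In mucosal tissues plasma cells usually lie below the epithelium, and the epithelium carries their IgA outward with the receptor encoded by Pigr. In bulk tissue such as this, fewer cells of a type and less RNA per cell cannot be told apart.

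Because Pou2af1 acts at the octamer ATGCAAAT, the promoters of the members were searched for it on both strands. RefSeq's table for the GRCr8 build held a promoter for 3 of the 7 members, Cd79a, Tnfrsf17 and Jchain, and the 250 bases before the start were searched. The octamer was in none of those 3 windows and in 1.56% of 33469 windows of that length, which says only that these letters are not in these windows. The window of Tnfrsf17 is shown because it is the only tested member among the 3. It lies on the minus strand at chr10:4813773-4814022, and the capitals mark TATAAA, which starts 114 bases before the gene's start and occurs on either strand in 12.9% of windows:
Tnfrsf17: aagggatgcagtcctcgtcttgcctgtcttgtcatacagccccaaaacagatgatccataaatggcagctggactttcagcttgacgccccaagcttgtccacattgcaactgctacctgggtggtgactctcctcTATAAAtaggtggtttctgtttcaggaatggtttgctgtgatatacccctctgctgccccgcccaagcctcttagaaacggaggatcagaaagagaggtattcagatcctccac

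Cd79b, the signalling chain of the B cell receptor, was read by 1 probe printed as 2 spots. It was a dim probe, well above background on 8 of 25 arrays: 3 Control, 2 NMBA, 3 alpha, 0 delta and 0 gamma-enriched. In Control rats 1 to 5 the log2 values were -8.02, -5.97, -6.12, -5.95 and -6.67, and in NMBA rats 1 to 5 they were -5.97, -6.04, -5.92, -6.75 and -5.98. In alpha rats they were -5.98, -6.55, -6.76, -7.17 and -6.62, and in delta rats -6.83, -6.77, -7.35, -7.96 and -7.38. In gamma-enriched rats they were -7.78, -9.34, -7.58, -7.99 and -7.63. Every delta rat and every gamma-enriched rat lay below every NMBA rat, and every gamma-enriched rat lay below every alpha rat. Control rat 1 lay within the gamma-enriched range, far from the other Control rats. The group means ran downward from NMBA (-6.13 ± 0.35, SD, n = 5) through Control (-6.55 ± 0.87), alpha (-6.62 ± 0.43) and delta (-7.26 ± 0.48) to gamma-enriched (-8.07 ± 0.73). Neighbours in that order did not differ past the test.

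**Figure D1:**
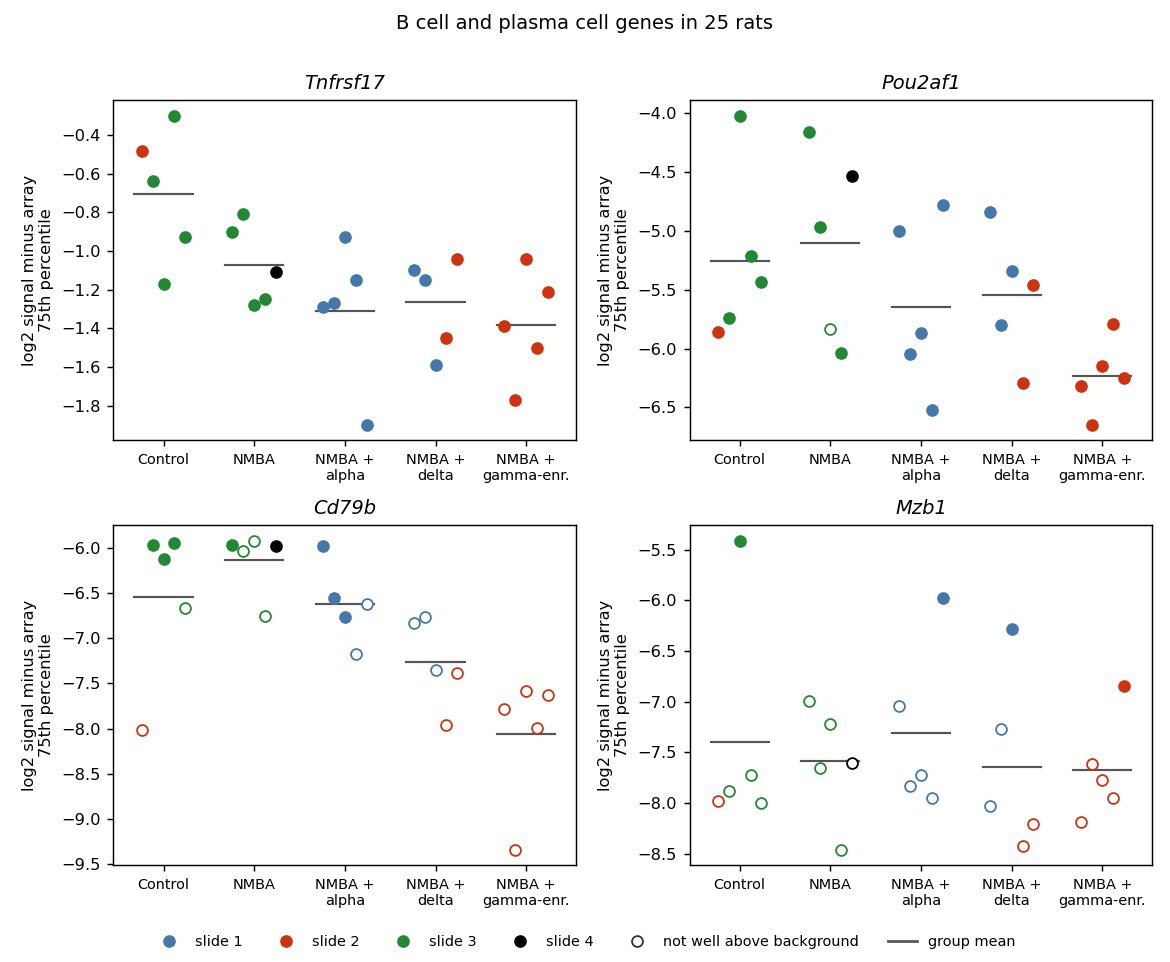
Each point is 1 rat, with log2 signal minus the array's 75th percentile on the vertical axis and the 5 groups on the horizontal axis, coloured by slide. Open points were not well above background on that array, and bars are means of 5 rats. Cd79b was low in every rat of slide 2, including Control rat 1 at -8.02, while Tnfrsf17 in that rat was -0.48, among the highest values.

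Pou2af1, the nuclear co-activator, had 3 probes. The probe used in the fit was well above background on 24 of 25 arrays, the exception being NMBA rat 3. Its Control values were -5.86, -5.74, -4.02, -5.21 and -5.43, and its NMBA values -4.16, -4.97, -5.83, -6.04 and -4.53. Alpha rats gave -5.00, -6.05, -5.87, -6.52 and -4.78, and delta rats -4.84, -5.80, -5.34, -6.29 and -5.46. Gamma-enriched rats gave -6.32, -6.65, -6.15, -5.79 and -6.25. Control rat 3 and NMBA rat 1 were the highest of all, and the gamma-enriched rats were the tightest group (SD 0.31, against 0.54 to 0.81 elsewhere). Every pair of groups overlapped. Means ran from NMBA (-5.11) through Control (-5.25), delta (-5.55) and alpha (-5.65) to gamma-enriched (-6.23), and no neighbours differed past the test.

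The other 2 Pou2af1 probes did not pass the filter on dim probes. One was well above background on 0 arrays and the other on 4. The latter read 533.8 signal units (-3.38 log2) in Control rat 4 and no more than 88.8 units in any alpha, delta, gamma-enriched or NMBA rat, while the probe used in the fit read -5.21 in that same rat. Across 25 rats the probe used correlated with each of the others at r = 0.45, so the probes of this gene disagree in single rats.

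Mzb1, the endoplasmic reticulum protein of antibody-secreting cells, was well above background on only 4 arrays, in Control rat 3, alpha rat 5, delta rat 3 and gamma-enriched rat 5. Control values were -7.98, -7.88, -5.41, -7.72 and -8.00, and NMBA values -6.99, -7.65, -7.22, -8.46 and -7.60. Alpha rats gave -7.04, -7.83, -7.72, -7.95 and -5.98, delta rats -8.03, -7.27, -6.28, -8.42 and -8.21, and gamma-enriched rats -8.19, -7.61, -7.77, -7.95 and -6.84. In Control, alpha, delta and gamma-enriched groups a single rat stood above its neighbours, and no NMBA rat reached the background call. Exact two-sided permutation tests over every split of the 10 rats compared gave p between 0.452 and 0.944 for the 10 pairs of groups, all 0.944 after adjustment over those 10. With Control rat 3 left out, the Control mean moved from -7.40 to -7.89 and the NMBA minus Control difference turned from -0.18 to 0.31.

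The Control rat with the highest Mzb1 was also the Control rat with the highest Pou2af1. Its 2 Mzb1 spots read 150.9 and 113.3 units and its 2 Pou2af1 spots 332.9 and 354.8, so both spots of each gene were high. The mucous gland markers Aqp5, a water channel, and Bpifb2, a secreted protein of glands, stood at -0.02 and 1.73 in this rat, the highest values among the 25. Those 2 of the 4 listed gland markers could be tested, and their summed level ran from 0.145 to 4.31 in Control rats and from 0.110 to 0.988 in the others. Mzb1 was also well above background in alpha rat 5, delta rat 3 and gamma-enriched rat 5. There Aqp5 was -1.65, -1.05 and -3.07, and Bpifb2 was -3.17, -0.98 and -3.75. In Control rats 4 and 5 Bpifb2 was -0.78 and -0.14, with Mzb1 at -7.72 and -8.00. The part of glands in the Mzb1 and Pou2af1 values was not tested.

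Tnfrsf17, the survival receptor BCMA, was read by 1 spot that was well above background on all 25 arrays, with signals between 1076.3 and 4681.1 units. Control values were -0.48, -0.64, -1.17, -0.30 and -0.93, and NMBA values -0.90, -0.81, -1.28, -1.25 and -1.11. Alpha rats gave -1.29, -1.27, -0.93, -1.15 and -1.90, delta rats -1.10, -1.15, -1.59, -1.45 and -1.04, and gamma-enriched rats -1.39, -1.77, -1.04, -1.50 and -1.21. The highest values were in Control rats 4, 1 and 2. The Control group overlapped each of the others through Control rat 3. Control rat 5, at -0.93, also lay below NMBA rats 1 and 2 and read the same as alpha rat 3. Means ran from Control (-0.71 ± 0.35, SD, n = 5) through NMBA (-1.07 ± 0.21), delta (-1.27 ± 0.24) and alpha (-1.31 ± 0.36) to gamma-enriched (-1.38 ± 0.28), and no neighbours differed past the test. For Cd79b and Pou2af1 it was the NMBA group that had the highest mean.

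In NMBA rats compared with Control rats, none of the tested members passed the test. Cd79b differed by 0.42 ± 0.36 (log2 difference ± SE, limma, Benjamini-Hochberg adjusted p = 0.67), Pou2af1 by 0.15 ± 0.39 (adjusted p = 0.907) and Tnfrsf17 by -0.36 ± 0.19 (adjusted p = 0.427). The 95% intervals were -0.34 to 1.17, -0.66 to 0.95 and -0.75 to 0.02, so a doubling of Cd79b is not outside its interval, while it is for Tnfrsf17. By limma 0 of 3 members and 1.52% of all genes were called, while 0 of 3 members and 12.8% of all genes had an unadjusted p under 0.05. The groups overlapped in all 3, and did not in 494 of the 12343 genes. Slide 3 held 4 rats of each group, and within it the differences were 0.01 for Cd79b, -0.15 for Pou2af1 and -0.30 for Tnfrsf17. Without Control rat 1 the Cd79b difference over all slides was 0.05.

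Among 22 tested genes of B cell identity and receptor signalling, 1 rose in NMBA rats, and the list's median difference was 0.38 against 0.05 over all genes. That gene was Plcg2, a phospholipase that relays signals from the B cell receptor and other immune receptors, at 0.97 ± 0.21 (limma, adjusted p = 0.0175). Differences were above 0 in 19 of the 22. The 174 tested olfactory receptor genes, a set chosen after values were seen, had a median of 0.31 here, with 13.8% below 0. The call of Plcg2 was lost when Control rat 2 or 4 or NMBA rat 1, 2 or 5 was left out (adjusted p up to 0.0569), with only these 10 rats fitted (0.065), within slide 3 (0.123) and with no scaling between arrays (0.551). The B cell marker Cd22 and the factor Pax5 did not pass. Cr2, Cxcr5 and Cd180, which also mark B cells, were well above background on 0 arrays, while Pax5 and Blnk were so on every array.

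In the plasma cell program, 1 of 15 tested genes rose. It was Cd27, a co-stimulatory receptor of plasma cells, memory B cells and T cells, at 3.82 ± 0.72 (limma, adjusted p = 0.00532). Cd27 was well above background in 4 of 5 NMBA rats (222.9 to 382.6 units) and 0 of 5 Control rats (12.7 to 49.2 units). NMBA rat 4 was not called even at 73.6 units, so no lower bound on a fold is given. The call of Cd27 was kept in all 10 fits that left out 1 rat. Derl3, a secretory stress gene of plasma cells, differed by 0.45 ± 0.32 (adjusted p = 0.581). The list's median was 0.03. On the same list Irf4 and Cd38 were well above background on 0 arrays. Prdm1, Xbp1, Sdc1 and Derl3 of that list were well above background on every array.

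Antibody genes themselves were hardly covered. Of 17 listed symbols of immunoglobulin genes and their carriers, 3 had a named probe: Pigr, the IgA transporter, Igll1, a surrogate light chain, and Fcgr2b, an inhibitory antibody receptor. None of the 3 was called by limma in this comparison or in any tocopherol group against NMBA. At an unadjusted p under 0.05 there were 0 in this comparison, 1 in alpha, 0 in delta and 1 in gamma-enriched rats against NMBA. Pigr differed between NMBA and Control by -0.16 ± 0.15. Of 15 tested attractants and survival factors with their receptors, 0 were called (3 at an unadjusted p under 0.05), with Ltb, a lymphotoxin that organizes lymphoid tissue, at 0.84 ± 0.34 (limma, adjusted p = 0.301) and the chemokine Cxcl12 at -0.67 ± 0.35 (adjusted p = 0.43). T cell markers moved in the same rats: 7 of 9 tested markers rose, or 2 of 9 with slide as a fixed block and 3 of 9 without NMBA rat 5, and their summed level was 0.673 to 1.27 in Control rats and 1.27 to 4.26 in NMBA rats. Cd3d, a chain of the T cell receptor complex, rose by 2.24 ± 0.45 (adjusted p = 0.00987). The T cell markers Cd28 and Trat1 were well above background on 0 arrays, and the part of T cells in Cd27 and Plcg2 was not tested.

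**Figure D2:**
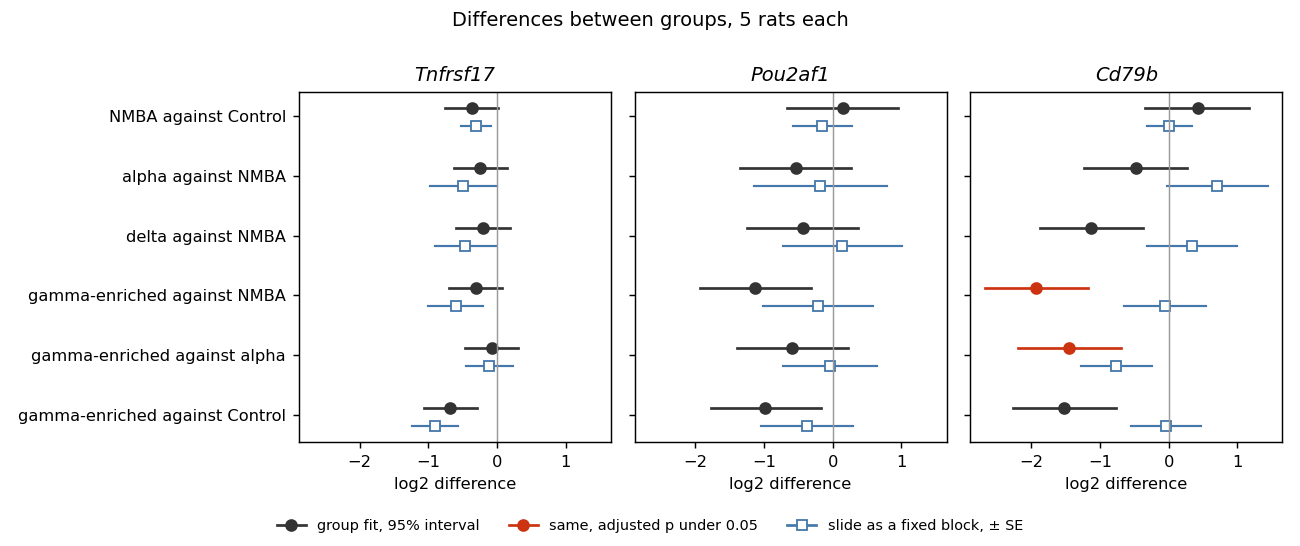
Log2 differences between group means on the horizontal axis for the tested members in 6 comparisons, which share groups. Circles with 95% intervals come from the fit of 5 group means to 25 rats, and squares with ± SE from the same fit with slide as a fixed block. Cd79b in gamma-enriched against NMBA rats moved from -1.93 to -0.05 with that block, while the interval of Tnfrsf17 included 0 in the 3 tocopherol comparisons with NMBA.

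Gamma-enriched rats had less Cd79b signal than NMBA rats, and this was the only member past the test in that comparison. Cd79b fell by 1.93 ± 0.36 on the log2 scale (limma, adjusted p = 0.0041), and the 5 rats of one group did not overlap the 5 of the other. The probe was well above background on 0 of 5 gamma-enriched and 2 of 5 NMBA arrays, and NMBA rat 3 was not called even at 88.2 units. The difference is therefore one of measured signals near background, and no lower bound on a fold is given. Pou2af1 differed by -1.13 ± 0.39 (adjusted p = 0.0707) and Tnfrsf17 by -0.31 ± 0.19 (adjusted p = 0.299). By limma 1 of 3 members was called, and 8.86% of all genes were called. Groups did not overlap in 1 of 3 members and in 7.07% of all genes. Pou2af1 was called when NMBA rat 4 was left out (-1.36, adjusted p = 0.029), a fit that called 12.4% of all genes.

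The Cd79b value moved with slide. On slide 2 all 8 rats lay between -9.34 and -7.38, on slide 1 the 8 rats lay between -7.35 and -5.98, and on slide 3 the 8 rats lay between -6.75 and -5.92. With slide as a fixed block, which rests on Control rat 1 to join the slides, the gamma-enriched minus NMBA difference was -0.05 (adjusted p = 0.997), and 0.00810% of all genes were called. Under normexp background correction the difference was -0.77 (adjusted p = 0.0106). Beyond what Control rat 1 shows, slide and treatment cannot be told apart here.

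Probes of olfactory receptor genes, best known from the sensory neurons of the nose, moved with Cd79b. Of 174 tested olfactory receptor genes, a set chosen after values were seen, 107 were lower in gamma-enriched than in NMBA rats (61.5%) and 0 higher. Their median difference was -1.11, and 0.27 with slide as a fixed block. Over 25 rats Cd79b correlated with the mean of these genes at r = 0.92 and rho = 0.92 (two-sided permutation p = 1e-05 for both, the smallest that 100000 permutations can give, and 0.0001 adjusted over 10 relations). Without the 2 rats farthest from the Cd79b median r was 0.91, with group means removed it was 0.84, and within slides 1, 2 and 3, of 8 rats each, it was 0.75, 0.71 and 0.74. These rats share groups and slides, so the p-values count them as more independent than they are. The olfactory receptor genes Or10al27, Or7g31 and Or52n3 were also among the 5 genes most like Cd79b in these same data. With the set chosen after values were seen, its p-values are a description and not an independent test. Pou2af1 followed the olfactory mean less closely (r = 0.65, adjusted p = 0.00117; 0.42, 0.40 and 0.49 within slides) and Tnfrsf17 hardly (r = 0.26, adjusted p = 0.231). The part of dim signal in the Cd79b difference was not tested.

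**Figure D3:**
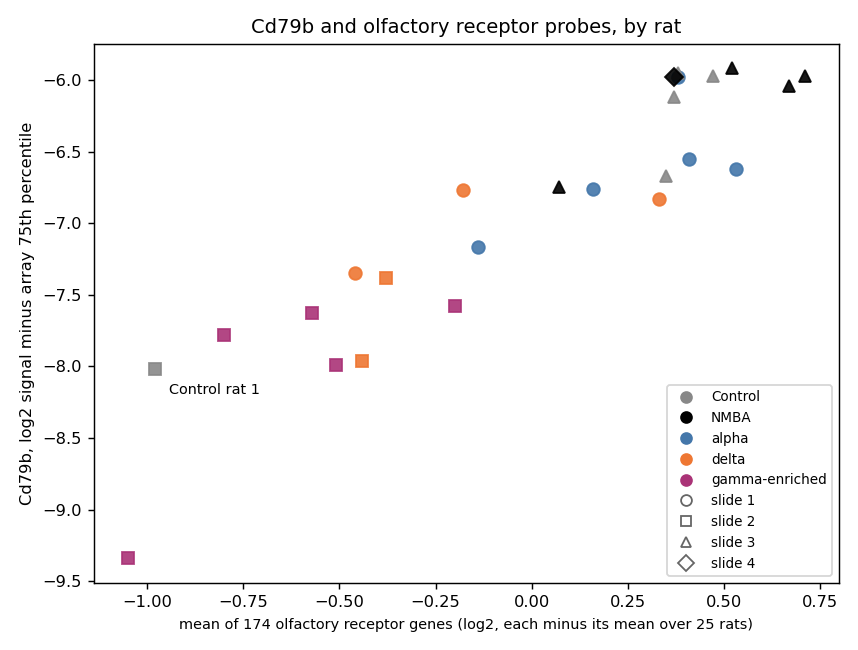
Each point is 1 rat, with the mean of 174 olfactory receptor genes on the horizontal axis and Cd79b on the vertical axis, both in log2 units. Colours are groups and shapes are slides. Control rat 1, at -0.98 and -8.02, lies among the gamma-enriched rats of its slide and not with the other Control rats, whose olfactory means were 0.35 to 0.47.

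Of the same 22 B cell genes, 6 fell in gamma-enriched against NMBA rats and 0 rose. Of all 12343 genes, 897 fell and 196 rose. The list's median was -0.71, against -0.10 over all genes and -1.11 over the 174 olfactory receptor genes. Bank1, a scaffold of B cell receptor signalling, fell by 1.37 ± 0.27 (limma, adjusted p = 0.005), and every gamma-enriched rat (-8.20 to -6.81) lay below every NMBA rat (-6.30 to -6.07). Its probe was near background, with 1 of 5 gamma-enriched and 2 of 5 NMBA arrays well above it. Cd40, the receptor for T cell help, fell by 1.27 ± 0.25 (adjusted p = 0.00472), again without overlap. Fcrla, an Fc receptor-like protein of B cells, fell by 1.34 ± 0.32 (adjusted p = 0.0126). The tetraspanin Cd37 fell by 1.28 ± 0.35 (adjusted p = 0.0265), a call lost without gamma-enriched rat 1 or 3 or NMBA rat 1, 2 or 3 (adjusted p up to 0.083). The other two were the IgE receptor gene Fcer2, at -1.20 ± 0.28 (adjusted p = 0.0108), and the B cell factor gene Spib, at -0.89 ± 0.23 (adjusted p = 0.0194). The Spib call was lost without gamma-enriched rat 2 or NMBA rat 1 or 2 (adjusted p up to 0.0637). As a description, over 25 rats that share groups and slides, Fcer2 and Spib correlated with the olfactory mean at r = 0.97 and 0.89, Cd40 at 0.66, Cd37 at 0.60, Fcrla at 0.56 and Bank1 at 0.55. With group means removed these were 0.95, 0.86, 0.36, 0.31, 0.21 and 0.34. With slide as a fixed block Fcer2 and Spib stood at 0.27 and 0.17 rather than below 0. With that block Bank1 was at -0.53, Cd40 at -0.94, Fcrla at -1.11 and Cd37 at -1.22, with 0 of the 22 called. With no scaling between arrays 1 of the 22 was called.

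Plasma cell genes went in both directions in that comparison. Of 15 tested, 1 fell and 1 rose, with a median of -0.18. Cd27 fell by 2.86 ± 0.72 (limma, adjusted p = 0.015, and 0.0506 without NMBA rat 1). Pdia4, a protein disulphide isomerase of the endoplasmic reticulum, rose by 0.74 ± 0.14 (adjusted p = 0.00431), and its 5 gamma-enriched rats (1.21 to 1.63) lay above its 5 NMBA rats (0.35 to 1.04). Among attractants, survival factors and receptors, 3 of 15 fell and 0 rose. Ltb fell by 1.46 ± 0.34 (adjusted p = 0.0113) and Tnfsf13, which encodes the BCMA ligand APRIL, by 0.56 ± 0.13 (adjusted p = 0.0101), both without overlap. The chemokine receptor Ccr6 fell by 0.79 ± 0.24 (adjusted p = 0.0444), a call kept in 3 of 10 fits that left out 1 rat. Tnfrsf17, the receptor for APRIL, was at -0.31 with a 95% interval from -0.70 to 0.07, and whether ligand and receptor differed was not tested. With slide as a fixed block or no scaling between arrays, none of these 5 calls was kept (adjusted p 0.052 to 0.997).

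Markers of other cells were read in the same comparison, in which 8.86% of all genes were called. T cell markers fell in 8 of 9 genes, and their summed level was 0.528 to 1.05 in gamma-enriched rats against 1.27 to 4.26 in NMBA rats. Cd3d fell by 2.38 ± 0.45 (limma, adjusted p = 0.00426). Squamous markers fell in 3 of 6, with Krt4 at -0.81 ± 0.15, and their sum was 60.2 to 107 against 103 to 130. Among macrophage markers 1 of 8 fell, C1qa at -0.90 ± 0.28, and among fibroblast markers 1 of 6, Dcn at -0.74 ± 0.22. Among plasmacytoid dendritic cell markers 1 of 5 fell, the interferon-induced Bst2 at -0.86 ± 0.17. The C1qa and Dcn calls were each kept in 3 of 10 fits that left out 1 rat, and the Bst2 call in all 10. Single calls in lists of this size are not read as a change of the list. Endothelial (4), muscle (8), red blood cell (4) and mucous gland (2) markers had 0 called by limma, with 2, 2, 2 and 0 at an unadjusted p under 0.05 and medians of -0.58, -0.53, -0.43 and -0.10. The part of these cells in the B cell values was not tested.

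**Figure D4:**
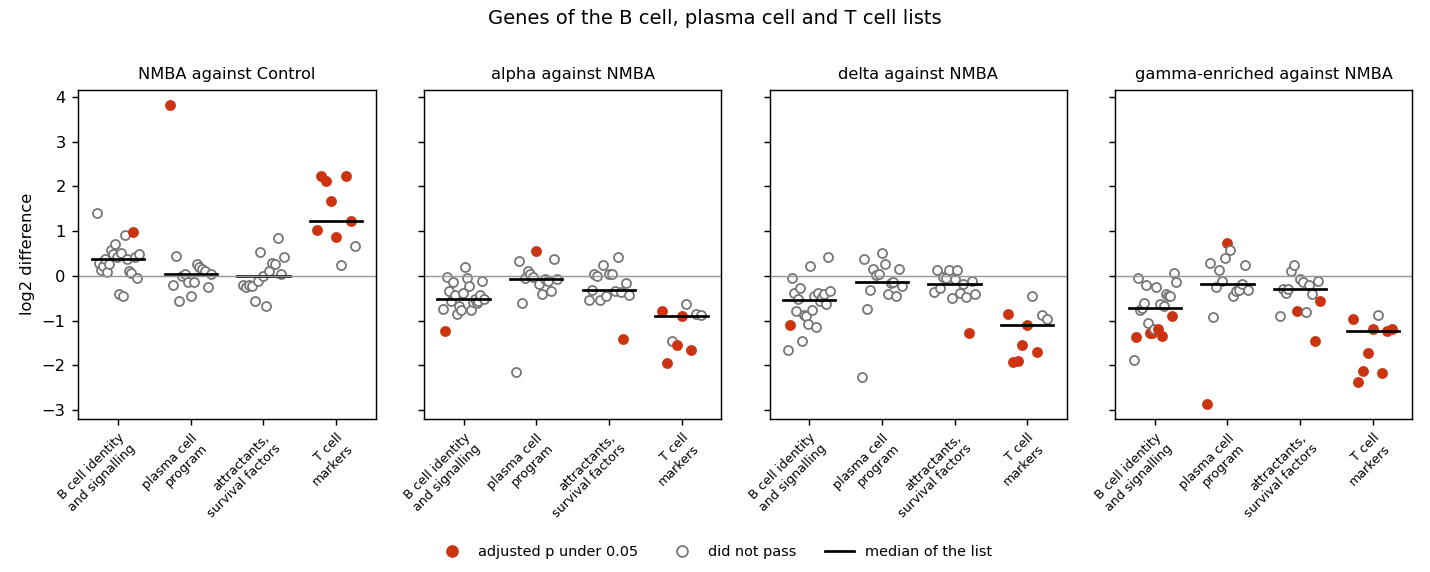
Each point is 1 gene of a list, with its log2 difference on the vertical axis in 4 comparisons, and bars are list medians. Filled points had an adjusted p under 0.05. B cell genes had a median of 0.38 in NMBA against Control and -0.51, -0.54 and -0.71 in the alpha, delta and gamma-enriched groups against NMBA, and T cell markers had 1.23, -0.91, -1.11 and -1.24, with the NMBA rats shared by all 4 comparisons.

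Delta rats also had lower Cd79b values than NMBA rats, but the difference did not pass. It was -1.13 ± 0.36 (limma, adjusted p = 0.0825), although the 2 groups did not overlap, with 0 of 5 delta and 2 of 5 NMBA arrays well above background. Pou2af1 differed by -0.44 ± 0.39 (adjusted p = 0.571) and Tnfrsf17 by -0.20 ± 0.19 (adjusted p = 0.594). By limma 0 of 3 members and 2.41% of all genes were called, and 1 of 3 members and 2464 of the 12343 genes had an unadjusted p under 0.05. Groups failed to overlap in 1 of 3 members and 5.68% of genes. The 2 delta rats on slide 2 read -7.96 and -7.38 for Cd79b and the 3 on slide 1 read -6.83, -6.77 and -7.35. With slide as a fixed block the Cd79b difference was 0.34.

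Bank1 was the only one of 22 B cell genes to fall in delta rats, by 1.09 ± 0.27 (limma, adjusted p = 0.0394), on measured signals that were well above background on 0 of 5 delta and 2 of 5 NMBA arrays. The call was kept in 2 of 10 fits that left out 1 rat, those without delta rat 1 or NMBA rat 4. Cd22, an inhibitory receptor of B cells, was also well above background on 0 of 5 delta and 2 of 5 NMBA arrays, and did not pass (adjusted p = 0.0568). Ltb was the only attractant or survival factor of 15 to fall, by 1.28 ± 0.34 (adjusted p = 0.0486), also kept in 2 of 10 such fits. Of 15 plasma cell genes 0 were called (5 at an unadjusted p under 0.05), with Cd27 at -2.26 ± 0.72 (adjusted p = 0.0778) and Derl3 at -0.74 ± 0.32 (adjusted p = 0.187). T cell markers fell in 6 of 9, with a summed level of 0.663 to 1.46 in delta rats, and each of those 6 calls was lost without NMBA rat 1. With slide as a fixed block none of the calls of Bank1, Ltb or the T cell markers was kept, and 0.00810% of all genes were called.

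Alpha rats did not differ from NMBA rats past the test in any member. Cd79b differed by -0.48 ± 0.36 (limma, adjusted p = 0.523), Pou2af1 by -0.54 ± 0.39 (adjusted p = 0.503) and Tnfrsf17 by -0.24 ± 0.19 (adjusted p = 0.546). By limma 0 of 3 members and 3.75% of all genes were called, and 0 of 3 members and 18.3% of all genes had an unadjusted p under 0.05. The groups overlapped in all 3 members, and did not in 4.67% of genes. The 95% intervals reached -1.24, -1.35 and -0.62, so a halving of Cd79b or Pou2af1 lies inside them. Bank1 fell by 1.24 ± 0.27 (adjusted p = 0.0149), and this call was kept in all 10 fits that left out 1 rat, but not under normexp background correction (-0.44, adjusted p = 0.0951). Its probe was well above background on 1 of 5 alpha and 2 of 5 NMBA arrays. Ltb fell by 1.42 ± 0.34 (adjusted p = 0.0238), a call lost without alpha rat 4 or NMBA rat 1 or 3 (adjusted p up to 0.0724), and Pdia4 rose by 0.56 ± 0.14 (adjusted p = 0.0318), a call kept in 5 of 10 such fits. T cell markers fell in 5 of 9, with a summed level of 0.668 to 1.41 in alpha rats, and each of those 5 calls was lost without NMBA rat 1. With slide as a fixed block none of the calls of Bank1, Ltb, Pdia4 or the T cell markers was kept, and 0.00810% of all genes were called. Alpha and NMBA rats share no slide, and why these calls were lost was not tested.

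Against Control rats, none of the 3 tested members passed in the alpha, delta or gamma-enriched group by limma. Tnfrsf17 had its largest differences here: -0.60 ± 0.19 in alpha (adjusted p = 0.122), -0.56 ± 0.19 in delta (adjusted p = 0.239) and -0.68 ± 0.19 in gamma-enriched rats (adjusted p = 0.0851). The 3 comparisons share the same Control rats, so they are not independent of each other. At an unadjusted p under 0.05 there was 1 member in alpha, 1 in delta and 3 in gamma-enriched rats, beside 13.8%, 10.8% and 18.4% of all genes. After adjustment 0.818%, 0.211% and 0.624% of all genes were called. The groups overlapped in every member, and did not in 3.81%, 3.42% and 3.36% of genes. For Tnfrsf17, Control rat 1 on slide 2 read -0.48, above the 7 other rats of its slide, whose highest value was -1.04, and with slide as a fixed block the differences were -0.79, -0.76 and -0.90. Cd79b in gamma-enriched against Control rats was -1.52 ± 0.36 (adjusted p = 0.0523), whereas Pou2af1 was at -0.98 ± 0.39 (adjusted p = 0.194). Cd79b passed when Control rat 1 was left out (-1.89), a fit that called 5.65% of all genes. That fit left no Control rat on slide 2, where all gamma-enriched rats lay.

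Among the tocopherol groups, 3 pairs were compared with no doses given in the sources used. Gamma-enriched rats had lower Cd79b than alpha rats, by 1.45 ± 0.36 on the log2 scale (limma, adjusted p = 0.0413), without overlap, on signals well above background on 0 of 5 gamma-enriched and 3 of 5 alpha arrays. By limma 1 of 3 members and 1.62% of all genes were called, and 1 of 3 members and 3.22% of genes did not overlap. This call was kept in 2 of 10 fits that left out 1 rat, those without alpha rat 4 (adjusted p = 0.0247) or gamma-enriched rat 3 (0.0372), and was lost in the other 8 (0.0553 to 0.143). It was also lost with slide as a fixed block (-0.76, adjusted p = 0.66) but kept with slide as a random block (-1.55, adjusted p = 0.00926). In the same comparison 55 of the 174 olfactory receptor genes were lower. Pou2af1 differed by -0.59 (95% interval -1.39 to 0.22) and Tnfrsf17 by -0.07 (-0.46 to 0.31).

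Delta against alpha and gamma-enriched against delta gave 0 of 3 members by limma, with 0.00% of all genes called in each. At an unadjusted p under 0.05 there were 0 and 1 members, beside 4.63% and 4.05% of all genes. The groups overlapped in every member, and did not in 0.681% and 0.770% of genes. Cd79b differed by -0.64 between delta and alpha (95% interval -1.39 to 0.11) and by -0.81 between gamma-enriched and delta (-1.56 to -0.05, adjusted p = 0.947). Within slide 1, which held 5 alpha and 3 delta rats, the former was -0.37, and within slide 2, which held 5 gamma-enriched and 2 delta rats, the latter was -0.39. Tnfrsf17 differed by 0.04 (-0.35 to 0.42) and -0.11 (-0.50 to 0.27), and Pou2af1 by 0.10 (-0.71 to 0.91) and -0.69 (-1.49 to 0.12). These intervals do not show that the tocopherols act alike on Cd79b or Pou2af1.

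The members did not move as a single group from rat to rat. Over 25 rats, Pou2af1 and Cd79b had r = 0.66 and rho = 0.61 (permutation p adjusted over 10 relations 0.00117 and 0.0053), and r was 0.62 without the 2 rats farthest from the Cd79b median. Within slides 1, 2 and 3 that r was 0.36, 0.64 and 0.36. Pou2af1 and Mzb1 had r = 0.56 (adjusted p = 0.00917) but rho = 0.43, which did not pass (adjusted p = 0.0846), and r was 0.36 without the 2 farthest rats, one of them Control rat 3. On slide 3 it was 0.80 and on slide 2 it was -0.31. Tnfrsf17 showed r = 0.41 with Cd79b, 0.17 with Pou2af1 and -0.30 with Mzb1, none past an adjusted p of 0.05. These rats again share groups and slides.

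The 5 genes most like the mean of the 3 tested members over 25 rats, by Pearson correlation among 12340 others, were Slc23a4, Or4e2 and Jakmip3 (0.90 each) and Nkx2-3 and Or10al27 (0.89 each). With group means removed they were Or8h7b and Bin2a (0.86 each), Uts2b (0.85), and Or7g34 and Or10al27 (0.84 each). Olfactory receptor genes made up 2 of the first 5 and 3 of the second. Tnfrsf17 taken alone, a pattern chosen after values were seen, was most like Fam115e (0.86), Cldn10 (0.75), Egln3 (0.72), Ciart and Fa2h (0.71 each), none of them on the B cell, plasma cell or T cell lists.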

How the data were processed

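Each array held Cy3-labelled RNA from the esophageal epithelium of 1 rat, extracted with TRIzol and linearly amplified, per the labels' protocols. The deposited intensity values are processed signals after background subtraction by Agilent Feature Extraction, version 11.5.1.1 per the file headers and 10.7 per the submitters' processing notes. The authors' deposited table holds log2 values of 30507 probes, normalized by the authors in a way not stated in the sources used here. Over the probes shared with the values used here it correlated with them at r = 1.000 on each array, and it served as an alternative.

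Outlier spots were dropped, spots of a probe averaged, and each array's 75th percentile subtracted from log2 signal, over 30367 probes. Probes took their symbol from the RefSeq accession in the files, through RefSeq's gene table: 18355 had 1 symbol, 0 several and 12012 none here. Probes had to be well above background on 5 or more arrays, and the kept probe with the highest mean stood for a gene. One model of 5 group means (limma 3.58.1, R 4.3.3; 20 residual and 3.08 prior degrees of freedom) gave 10 contrasts, with Benjamini-Hochberg adjustment over 12343 genes and a threshold of 0.05. Members not kept were compared by exact permutation tests. The same fit was also run on simulated arrays with known changes, which had independent noise and no slide effect.

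Named genes were the members, up to 4 called genes of each list with the largest difference per comparison (up to 2 where none passed), and the 5 genes most like the members. Cd22, Derl3 in NMBA against Control, Fcer2, Spib, the olfactory receptor set and the B cell markers given as not passing were chosen after their values were seen. So were the listed genes given only by their background calls. The members and lists were chosen with earlier results of these data known. Alternatives were normexp background correction (offset 50, on median spot signals, in place of the mean signals planned), quantile normalization, other filters on dim probes, the mean of a gene's kept probes, slide as a fixed or random block, a replicate block, only the 10 rats compared, values within a slide, each rat left out and, chosen after seeing the data, no scaling between arrays. Replicate numbers did not pair rats: same-numbered rats' deviations from group means correlated at -0.58 to 0.53, and in no comparison did all 5 pairs exceed 0.1. The number of arrays limits the precision. The limma p-values set a difference against the spread between rats within groups, which holds differences between slides only in part.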

Additional observations from a re-analysis of the deposited data

Results flagged for a closer look

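Among 30 groups of 5 rats checked over the 6 member probes, 4 held a rat whose gap to its nearest neighbour, as a share of the group's range, passed Dixon's 95% critical value. Chance flags about 1 group in 20. For Cd79b, NMBA rat 4 read -6.75 (nearest -6.04), and gamma-enriched rat 2 read -9.34 (nearest -7.99). For Mzb1, Control rat 3 read -5.41 (nearest -7.72). For the Pou2af1 probe that was well above background on 0 arrays, Control rat 1 read -9.36 (nearest -8.78).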

How the results depend on the processing

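Of the values of single members under settings other than leaving out a rat, 302 kept direction and side of the threshold, 7 passed it newly, 7 no longer passed it and 13 reversed. In gamma-enriched against NMBA rats the count of members called (1) became 2 with no filter on dim probes and with slide as a random block, where Pou2af1 joined, and 0 with slide as a fixed block and with a filter of 10 arrays, which left Cd79b out. In gamma-enriched against alpha rats it went from 1 to 0 under normexp, quantile normalization, a filter of 10 arrays, slide as a fixed block, the replicate block, only the 10 rats compared and no scaling. Counts of 0 became 1 in alpha against Control with no scaling, 1 in delta against NMBA with slide as a random block, and in gamma-enriched against Control 1 with the mean of kept probes and 2 with slide as a random block. Leaving out 1 rat gave 1 to 2 in gamma-enriched against NMBA, 0 to 1 in gamma-enriched against alpha and 0 to 1 in gamma-enriched against Control. The replicate block raised the adjusted p of Cd79b in gamma-enriched against alpha to 0.0833 (limma) and changed no other member's call.

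Reversed values of Cd79b were 0.01 (normexp) and 0.72 (slide as a fixed block) in alpha against Control, and with that block 0.71 in alpha against NMBA, 0.34 in delta against NMBA and 0.35 in delta against Control. Those of Pou2af1 were -0.15 in NMBA against Control with slide as a fixed block and within slide 3, and -0.09 there with no scaling, then 0.14 in delta against NMBA with the block and -0.02 in delta against alpha under normexp. Those of Tnfrsf17, all with no scaling, were 0.01 in gamma-enriched against NMBA, 0.38 against alpha and 0.12 against delta. The cause was not tested. With no scaling the median of all genes itself moved, to 0.22, 0.37 and 0.17 in those 3 comparisons and to -0.36 in alpha against Control. Leaving out 1 rat turned the sign of Cd79b in alpha against Control (-0.44 to 0.08), of Pou2af1 in NMBA against Control (-0.09 to 0.46), delta against Control (-0.47 to 0.02) and delta against alpha (-0.12 to 0.32), and of Tnfrsf17 in delta against alpha (-0.11 to 0.13) and gamma-enriched against alpha (-0.22 to 0.02). Cd79b and Mzb1 were near background on most arrays, so signal over background limits both.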
